A study of Flaveria robusta and Flaveria ramosissima and Flaveria trinervia with 18 samples.

Results

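The genes described here are the 123 of 30040 listed genes whose transcript abundance in control light stepped down from a C3 to a C3–C4 intermediate to a C4 species of the plant genus Flaveria. They were chosen on the mean TPM (abundance scaled to the library and corrected for gene length) of the 3 control libraries of each species. All 3 control means had to be at least 1 TPM and the mean of F. robusta at least 10 TPM. The mean of F. ramosissima had to be at most 0.5 times that of F. robusta, and the mean of F. trinervia at most 0.5 times that of F. ramosissima. The levels in control light are therefore given as a description, without a test. The files do not pair gene numbers with gene names, so 4 genes are printed by their number and the others are called by their rank of mean abundance in control leaves of F. robusta.

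RNA was sequenced from newly expanded mature leaves of F. robusta (C3), F. ramosissima (C3–C4) and F. trinervia (C4), exposed either to 500 µmol m−2 s−1 (control light) or to 1400 µmol m−2 s−1 (high light). Each of the 6 groups held 3 libraries, 18 in all, and the labels name no other treatment, genotype or plant age. The growth chamber is described with a light level below both, and how long the plants stood in each light is not given. Whether replicates came from separate plants is not said in the labels, so the p-values measure only the spread between these libraries, which may be technical. Each kind of photosynthesis was held by only 1 species, and species and photosynthetic type cannot be told apart.

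C3 leaves fix CO2 directly with Rubisco in mesophyll cells, and the oxygenation side reaction of Rubisco feeds the photorespiratory pathway. C4 leaves first fix CO2 as bicarbonate with phosphoenolpyruvate carboxylase in the mesophyll and release it around Rubisco in the bundle sheath, where oxygenation is held back. C3–C4 intermediates release photorespiratory CO2 in the bundle sheath and lie between these states. Transcripts of Rubisco and of photorespiratory enzymes are known to be less abundant in C4 than in C3 leaves, but without gene names it cannot be said which of the 123 genes belong to these pathways, and the leaf label could not be checked against marker genes. In whole leaf RNA, fewer cells of a type and less RNA per cell cannot be told apart.

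Listed TPM summed to between 903641 and 929124 in a library, and the read depth is unknown. Some libraries stood apart from the others of their group. Across the 18911 genes that averaged 1 TPM or more, F. robusta high light 2 correlated with high light 1 and 3 at r = 0.935 and 0.949, against 0.984 between those. F. robusta control 3 correlated with control 1 and 2 at 0.948 and 0.950, against 0.972. In F. trinervia, control 3 (0.970 and 0.979, against 0.996) and high light 2 (0.981 and 0.985, against 0.996) also stood apart. The replicates of F. ramosissima were the least alike, with r from 0.904 to 0.914 in control light and from 0.910 to 0.937 in high light. These values are across genes, which are not independent replicates.

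The set held a large part of the leaf transcripts of the C3 species and little of those of the C4 species. The 123 genes took 11.7%, 13.1% and 15.2% of listed TPM in the control libraries of F. robusta, and 12.01%, 14.98% and 12.09% in its high light libraries. The highest values at each light were control 3 and high light 2, the libraries that stood apart. In F. ramosissima the share was 4.01%, 4.29% and 4.33% in control light and 3.82%, 4.05% and 4.53% in high light. In F. trinervia it was 0.764%, 0.701% and 0.645% in control light and 0.968%, 0.990% and 0.941% in high light. Under high light, which played no part in the choice, every library of F. robusta thus lay above every library of F. ramosissima, and every library of F. ramosissima above every library of F. trinervia. The group means were 13.0% ± 1.69, 4.13% ± 0.361 and 0.966% ± 0.0247 (SD, n = 3). The high light libraries of F. trinervia did not overlap its control libraries, whereas the 2 light levels overlapped in the other species. The control libraries chose the genes, so this comparison of light levels is a description. In F. trinervia 77 of the 123 genes (62.6%) had a lower mean in high light and 46 a higher one. The mean was lower in 68.1% of the 6326 genes that met the TPM cut-offs of the rule.

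**Figure D1:**
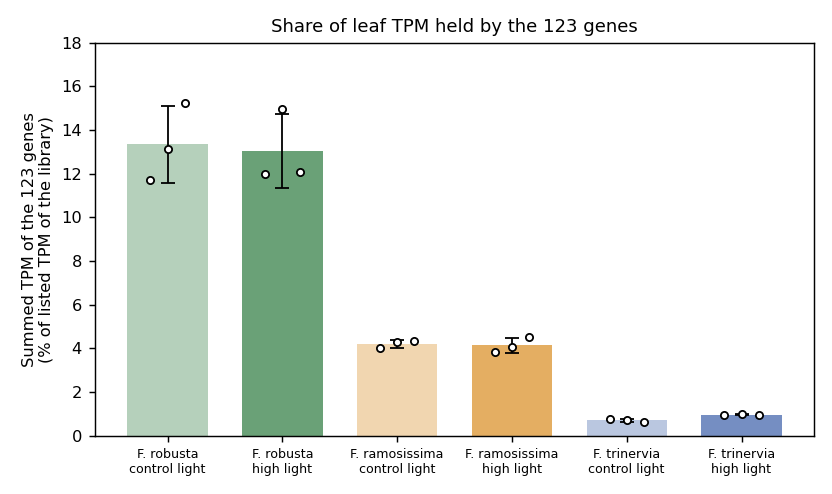
Share of listed TPM held by the 123 genes in each species and light level; bars are means of 3 libraries, error bars are SD and points are libraries in the order of replicate 1, 2 and 3. F. robusta lies between 11.7% and 15.2%, F. ramosissima between 3.82% and 4.53%, and F. trinervia below 1%.

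A few very abundant genes carried most of this share. In control light, 11 genes had a mean of at least 1000 TPM in F. robusta and together held 90.1% of the summed mean of the 123. A further 33 genes lay between 100 and 1000 TPM, 42 between 30 and 100, and 37 between 10 and 30. Genes of at least 1000 TPM made up 8.94% of the set, against 1.33% of the 6326 genes that met the level part of the rule. The floor of 1 TPM in F. trinervia leaves genes of low abundance little room for both steps, so these shares are a description. The median over the 123 genes was 52.2 TPM in F. robusta, 13.0 in F. ramosissima and 3.18 in F. trinervia. The drop from F. robusta to F. trinervia ranged from 4.11-fold to 2846-fold, with a median of 12.3. The median ratio of F. trinervia to F. robusta was 0.0221 among the 11 most abundant genes and 0.113 among the 37 least abundant ones, which the floor of 1 TPM in F. trinervia limits.

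The cut-offs lay within a dense range of values. At the first step, from F. robusta to F. ramosissima, 38 genes of the set had a ratio between 0.4 and 0.5, and 34 genes that met the rest of the rule had a ratio between 0.5 and 0.6. The values next to the cut-off were 0.498 inside and 0.501 outside. At the second step, from F. ramosissima to F. trinervia, the corresponding counts were 31 and 37, and the nearest values were 0.499 and 0.502. The lowest mean of F. robusta inside was 11.1 TPM and the highest outside was 8.94, with 10 genes left out by this cut-off alone. The floor of 1 TPM in F. trinervia left out 324 genes that met all else, with 1.01 TPM as the lowest value inside and 0.993 as the highest outside. Of the 123 genes, 43 met the rule whichever control library was left out. Scaling the control libraries by their median ratio, which sets the typical gene of the species equal, selected 127 genes, of which only 52 were among the 123.

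Gene04349 was the most abundant gene of the set. In control light it had 24881, 30722 and 33569 TPM in F. robusta, 11820, 9372 and 12248 in F. ramosissima, and 677, 576 and 719 in F. trinervia. In high light the values were 27214, 35055 and 31647 in F. robusta, 7741, 7519 and 11561 in F. ramosissima, and 892, 1328 and 1037 in F. trinervia. No library of a species overlapped those of the next, at either light level. Under high light the first step was −1.83 on the log2(TPM + 1) scale (SE 0.21, limma adjusted p = 5.90e-05) and the second was −3.03 (SE 0.21, limma adjusted p = 1.98e-06). The larger drop of this gene thus lay between the intermediate and the C4 species.

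Gene26099, the next in abundance, had a smaller drop. In high light it had 19270, 20735 and 18828 TPM in F. robusta, 11297, 10125 and 10827 in F. ramosissima, and 3477, 3219 and 3089 in F. trinervia. The 3 species did not overlap. The first step was −0.87 (SE 0.09, limma adjusted p = 4.58e-05) and the second −1.72 (SE 0.09, limma adjusted p = 4.80e-07). The ratio of F. ramosissima to F. robusta was 0.548 in high light, outside the cut-off of 0.5, and in control light F. robusta varied from 20655 to 31348 TPM.

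The other 9 genes of at least 1000 TPM also kept their order under high light. All 11 passed the test at both steps, and in all 11 the libraries of neighbouring species did not overlap. Over the 18911 genes tested, 3.83% were called lower at both steps and 5.04% had no overlap at either. The gene ranked 3 had 11508, 30763 and 12653 TPM in the high light libraries of F. robusta, with replicate 2 far above the others. In control light it was replicate 3 of this species that lay highest, at 31810 TPM against 12972 and 13671. It had 2613, 3514 and 4342 TPM in F. ramosissima and 82.1, 100.4 and 126 in F. trinervia under high light, so its first step of −2.27 (limma adjusted p = 0.000625) was smaller than its second of −5.06 (limma adjusted p = 3.23e-06).

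The shape of the drop differed widely among these genes. The gene ranked 8 dropped mostly at the first step. It had 2080, 3462 and 1719 TPM in high light in F. robusta, 28.1, 10.4 and 5.53 in F. ramosissima, and 0, 0.98 and 0.33 in F. trinervia. Its steps were −7.48 (limma adjusted p = 2.46e-06) and −3.23 (limma adjusted p = 0.000674), and its 2846-fold drop in control light was the largest of the set, with F. ramosissima at 0.11, 34.8 and 0 TPM there. The gene ranked 11 dropped mostly at the second step. It had 1348, 1263 and 1048 TPM in high light in F. robusta, 376, 310 and 356 in F. ramosissima and 2.03, 1.98 and 1.74 in F. trinervia, with steps of −1.81 (limma adjusted p = 1.60e-05) and −6.90 (limma adjusted p = 5.58e-09). The gene ranked 6 had the same shape, at 5118, 6374 and 4619 TPM, then 1642, 3122 and 3542, then 79.5, 71.2 and 70.9, and its ratio at the first step was 0.516. The gene ranked 10 dropped by similar amounts at both, −4.35 (limma adjusted p = 2.70e-06) and −4.08 (limma adjusted p = 4.24e-06).

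**Figure D2:**
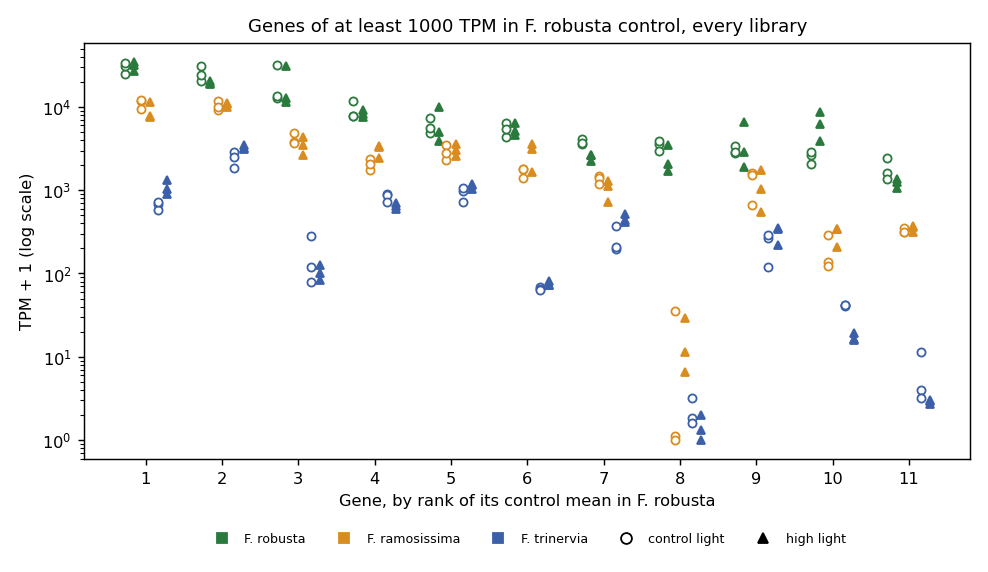
TPM + 1 on a log scale in all 18 libraries for the 11 genes of at least 1000 TPM in control leaves of F. robusta, ordered by rank; open circles are control light and filled triangles high light, and each point is a library. At high light the 3 species do not overlap in any of the 11 genes, against 5.04% of all tested genes without overlap at either step. The gene ranked 8 is listed at 0 TPM in a library each of F. ramosissima (control) and F. trinervia (high light).

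To learn whether the steps held in libraries the choice did not use, the species were compared in the 9 high light libraries. The mean of F. robusta exceeded that of F. ramosissima in 122 of 123 genes, and the mean of F. ramosissima exceeded that of F. trinervia in 108. Both held in 107 genes (87.0%), against 15.5% of the 18911 genes tested. Both ratios were at most 0.5 in 75 genes (61.0%), against 7.09% of all tested genes. The whole rule, level cut-offs included, was met in high light by 185 genes of the table, and the 59 genes common to both lists were 48.0% of the 123 and 31.9% of the 185.

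At the first step, limma with Benjamini-Hochberg adjustment called 107 of 123 genes lower in F. ramosissima than in F. robusta under high light. The background was 38.9% of all tested genes called lower. None was called higher, and none had an unadjusted p under 0.05 in that direction. The median difference was −1.92 on the log2(TPM + 1) scale, against −0.36 over all tested genes and −0.84 over the 6326 genes that met the level part of the rule, of which 53.1% were called lower. The libraries of the 2 species did not overlap in 103 of the 123 genes, against 38.3% of all tested genes. The typical gene differed at this step too. With median-ratio scaling of the high light libraries the median over all tested genes moved to 0.25, that over the 6326 genes to −0.07 and that over the set to −1.20. In that fit 79 genes were called lower and 3 higher, against 24.6% and 40.3% of all tested genes.

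At the second step, 71 of 123 genes were called lower in F. trinervia than in F. ramosissima and 3 were called higher, against 28.7% and 34.8% of all tested genes. The median difference was −1.21, while the medians of all tested genes and of the 6326 genes were 0.22 and 0.61. The libraries of F. ramosissima and F. trinervia did not overlap in 80 genes in the direction of the rule, against 32.2% of all tested genes. Scaling worked the other way here, with a median over all tested genes of −0.27 and a median over the set of −1.80. It gave 87 genes called lower and 2 higher, against 39.2% and 22.5% of all tested genes. In the direct comparison of the C4 with the C3 species, 114 genes were called lower in F. trinervia and none higher, against 26.6% and 23.0% of all tested genes. No gene had an unadjusted p under 0.05 for a higher level. The median difference was −3.68. After scaling it was −3.55, with 114 genes called lower, against 26.9% of all tested genes. All 3 libraries of F. robusta lay above all 3 of F. trinervia in 118 genes, against 29.8% of all tested genes.

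Both steps were called in 61 genes (49.6%), against 3.83% of all tested genes and 136 of the 6203 other genes that met the level part of the rule. A further 46 genes passed at the first step only, 10 at the second only, and 6 at neither. Of these 6, 2 were called lower in F. trinervia than in F. robusta and 4 in no comparison. Libraries overlapped at neither step in 67 genes, against 5.04% of all tested genes. Among the 43 genes that kept to the rule without any given control library, 40 were called at the first step, 34 at the second, 31 at both, and 43 between F. robusta and F. trinervia. The shares of all tested genes were 38.9%, 28.7%, 3.83% and 26.6%. These 43 genes were picked for steady steps in control light. Without F. robusta high light 2, the counts called lower were 107 at the first step, 79 at the second and 114 between F. robusta and F. trinervia, against 45.9%, 30.2% and 33.5% of all tested genes in that fit.

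**Figure D3:**
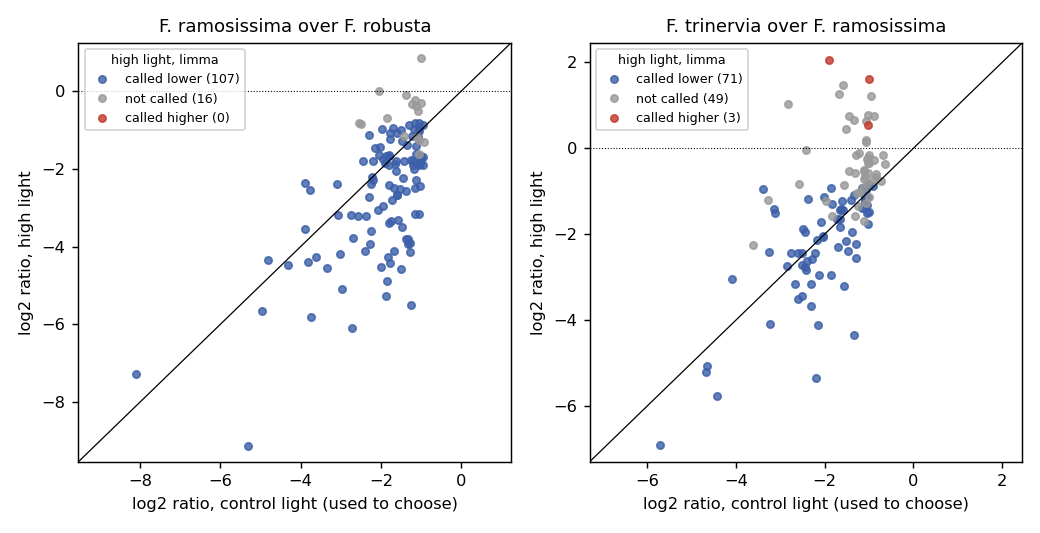
Log2 ratio of mean TPM + 1 between neighbouring species for the 123 genes, in control light (horizontal axis, used to choose the genes) and in high light (vertical axis); the solid line marks equal ratios, the dotted line a ratio of 1, and colours give the limma call in high light. At the first step 107 genes are called lower, and at the second step 71 are called lower and 3 higher. The genes not called lie on both sides of the dotted line.

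The ratios were not the same at the 2 light levels. The median ratio of F. ramosissima to F. robusta was 0.296 in control light and 0.220 in high light, and it was lower in high light in 79 genes. The median ratio of F. trinervia to F. ramosissima was 0.285 and 0.329, and it was higher in high light in 70 genes. The median ratio of F. trinervia to F. robusta was 0.0812 and 0.0409, and it was lower in high light in 70 genes. Among the 6203 other genes at the same levels these medians were 0.603 and 0.538 for the first ratio, 1.61 and 1.59 for the second and 0.945 and 0.853 for the third. The first ratio was lower in high light in 3414 of them, the second higher in 2802 and the third lower in 3780. The comparison of light levels rests in part on the control libraries that chose the genes and was not tested.

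In 16 genes the order of the means was broken under high light. F. trinervia lay above F. ramosissima in 15 of them, and F. ramosissima above F. robusta in 1. The mean of F. ramosissima was lower in high light than in control light in 14 of the 16, and the mean of F. trinervia was higher in 10. Among the 6326 genes of the level part, the first held in 64.4% and the second in 2017 genes. In some of the 16, 1 control library of F. ramosissima lay far above the others, as in the gene ranked 26 (10.1, 8.33 and 121 TPM). Those control values chose the genes, and the cause of the broken order was not tested. Limma called 3 of the 16 genes higher in F. trinervia than in F. ramosissima, those ranked 26, 48 and 75. Without F. robusta high light 2 it called 6 of the 123 genes higher, against 39.4% of all tested genes in that fit. The gene ranked 48 had 23.8, 32.6 and 21.3 TPM in F. ramosissima and 40.6, 38.6 and 36.1 in F. trinervia (log2 difference 0.57, limma adjusted p = 0.0313). The gene ranked 13 was the exception at the first step, at 235, 212 and 214 TPM in F. robusta against 567, 398 and 225 in F. ramosissima. Its libraries overlapped in these species.

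Gene20812, ranked 75, departed most clearly from the order. In control light it had 39.0, 56.6 and 18.8 TPM in F. robusta, 19.5, 18.3 and 16.4 in F. ramosissima, and 4, 2.78 and 5.60 in F. trinervia. In high light it had 18.2, 15.5 and 21.4 in F. robusta, 4.54, 4.76 and 4.15 in F. ramosissima, and 22.4, 22.4 and 20.6 in F. trinervia. The high light libraries of F. trinervia lay above all control libraries of that species, and those of F. ramosissima below all of its controls. Under high light F. trinervia minus F. ramosissima was 2.06 on the log2 scale and F. trinervia minus F. robusta 0.24. Gene24280, ranked 12, had 939, 1013 and 850 TPM in F. trinervia in high light, against 37.2, 20.6 and 58.2 in control light. In F. robusta it had 2712, 1442 and 2311 in high light, and in F. ramosissima 117, 319 and 937. Under high light F. ramosissima minus F. robusta was −2.66, F. trinervia minus F. ramosissima 1.504 and F. trinervia minus F. robusta −1.16. These 2 genes were picked for having the smallest p of a rise under high light, so their light changes and their levels under high light are a description, with no test.

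**Figure D4:**
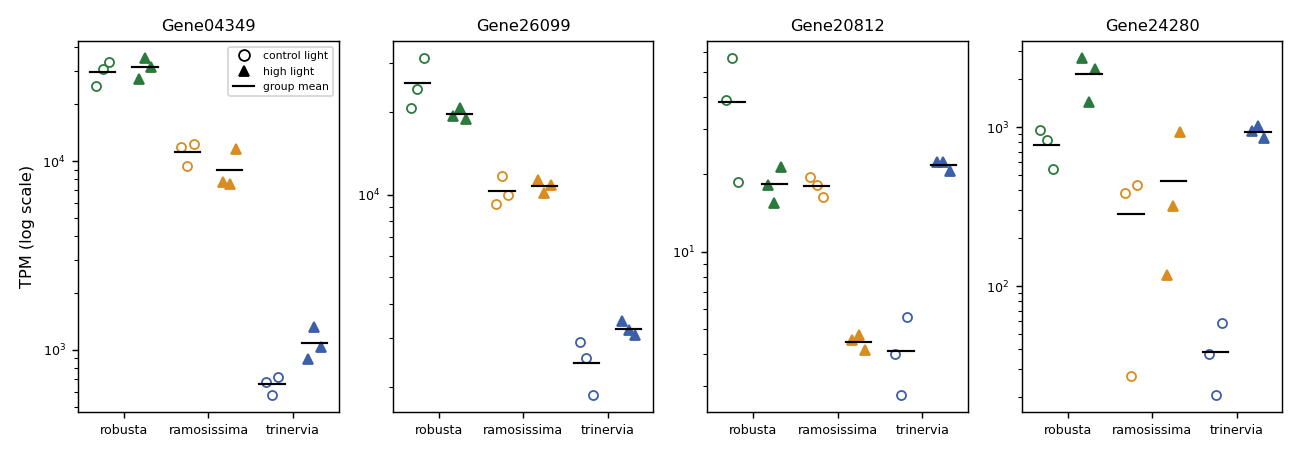
TPM on a log scale in each library for the 4 genes printed by number; open circles are control light, filled triangles high light, points stand in the order of replicate 1, 2 and 3, and lines are group means. Gene04349 and Gene26099 step down from F. robusta to F. trinervia at both light levels, whereas in high light Gene20812 and Gene24280 have a higher mean in F. trinervia than in F. ramosissima.

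The response to high light was measured in each species as high light minus control. Since the control libraries also chose the genes, these counts are given as a description and nothing is read from them. In the limma model of 18 libraries, 1 gene was called higher and 1 lower in F. robusta, against 1.03% and 1.11% of all tested genes. In F. ramosissima none was called higher and 3 lower, against 0.788% and 1.55%, with 8 genes at an unadjusted p under 0.05 for a rise. In F. trinervia 6 were called higher and 4 lower, against 1.54% and 5.39%. In all, 13 genes were called in at least 1 species and 2 of them in a pair of species. With each species fitted alone, limma called 15 genes higher and 30 lower in F. trinervia, against 6.45% and 34.6% of genes tested there, and none in F. robusta or F. ramosissima, where 29 and 31 genes had an unadjusted p under 0.05. In those fits 0.00659% of the genes tested in F. robusta and 0.0110% in F. ramosissima were called in each direction. The share of all tested genes at an unadjusted p under 0.05 was not computed, for the counts of 29 and 31 or for the 8 above. In the model of 18 libraries, 11 genes (8.94%) were called in F. robusta without its high light 2, against 5.56% of all tested genes in that fit. Without its control 2, 14 genes (11.4%) were called in F. ramosissima, against 7.39%, and without its control 1, 3 genes (2.44%) in F. trinervia, against 1.25%.

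The difference in light response between species was called in few genes, and the same limit holds. F. trinervia minus F. robusta was more positive in 4 genes and more negative in 4, against 0.809% and 2.29% of all tested genes. F. ramosissima minus F. robusta was more positive in none and more negative in 2, against 0.539% and 1.24%, with 11 genes at an unadjusted p under 0.05 for a more positive response. The share of all tested genes at that unadjusted p was not computed. F. trinervia minus F. ramosissima was more positive in 4 and more negative in 2, against 1.24% and 1.95%. Without F. robusta high light 2, the differences from F. robusta were called in 20 genes (16.3%) for F. trinervia and 13 (10.6%) for F. ramosissima, against 13.1% and 6.31% of all tested genes in that fit.

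The median light change is likewise a description, since its control values chose the genes. The median change on the log2(TPM + 1) scale was −0.01 in F. robusta, −0.29 in F. ramosissima and −0.21 in F. trinervia, against −0.07, −0.13 and −0.25 over the 6326 genes of the level part. Median-ratio scaling gave 0.06, −0.11 and 0.04, so the sign in F. robusta and F. trinervia depended on the scaling. Without 1 library the median in F. robusta ranged from −0.11 (without control 3) to 0.13 (without high light 2), and that in F. trinervia from −0.25 (without control 2) to −0.09 (without control 3). The high light mean was at least 2 times the control mean in 23 genes (18.7%) in F. robusta, in 4 (3.25%) in F. ramosissima and in 9 (7.32%) in F. trinervia, against 4.71%, 1.30% and 3.84% of the 6326 genes. It was at most 0.5 times the control mean in 10 (8.13%), 36 (29.3%) and 30 (24.4%), against 3.86%, 8.13% and 8.77%. The high light libraries all lay above the 3 controls in 11, 9 and 18 genes, against 4.63%, 4.66% and 7.50% of all tested genes, and below them in 16, 26 and 37 genes, against 7.82%, 9.96% and 36.3%. The mean was lower in high light in all 3 species for 21 genes (17.1%) and higher in all 3 for 5 (4.07%), against 19.4% and 3.97% of the 6326 genes. A higher mean in F. robusta with lower means in both other species was the most frequent pattern in the set, in 31 genes (25.2%), and also among the 6326 genes (22.2%).

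**Figure D5:**
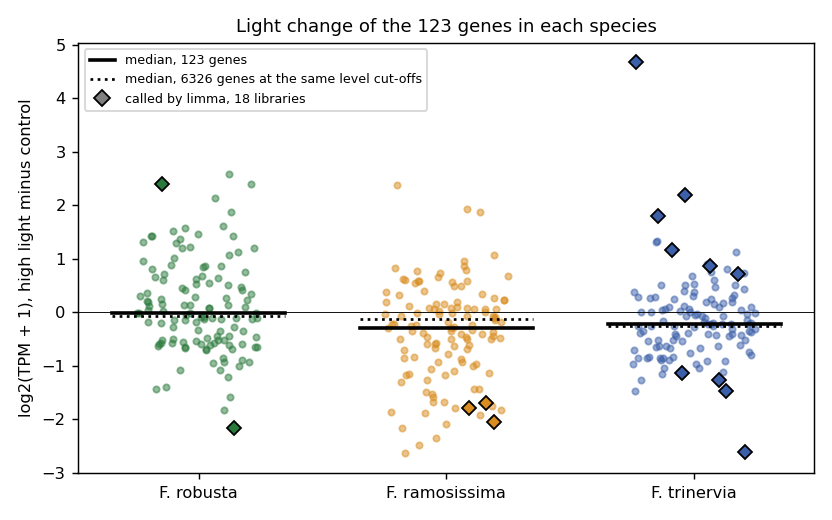
Change of log2(TPM + 1) from control to high light for each of the 123 genes in the 3 species; diamonds are genes called by limma in the model of 18 libraries, the solid bar is the median of the 123 genes and the dotted bar that of the 6326 genes at the same level cut-offs. Most points lie within 2 units of 0, and the highest point in F. trinervia is Gene24280.

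Among the 11 genes of at least 1000 TPM in control leaves of F. robusta, mean levels differed less between lights than between F. robusta and F. trinervia. This did not hold for Gene24280, ranked 12. It rose 24.2-fold in F. trinervia, while F. robusta exceeded F. trinervia 20.1-fold in control light and 2.31-fold in high light. Gene04349 had a mean of 657 ± 73.2 TPM in control and 1086 ± 222 in high light in F. trinervia (SD, n = 3), against 29724 ± 4429 and 31305 ± 3931 in F. robusta. The gene ranked 10 had 2666, 2079 and 2909 TPM in control and 8623, 3858 and 6225 in high light in F. robusta, where the 2 light levels did not overlap. In F. trinervia the same gene had 40.3, 39.5 and 41.3 in control and 14.95, 18.1 and 15.3 in high light, so its light changes lay in opposite directions in these species. The gene ranked 7 had the reverse pattern, with 3561, 4069 and 3669 TPM in control and 2673, 2272 and 2668 in high light in F. robusta, and 196, 209 and 374 against 436, 516 and 413 in F. trinervia. Its mean in F. trinervia was still 0.179 times that in F. robusta under high light. The gene ranked 29 had 29.96, 18.02 and 20.4 TPM in control and 1.48, 5.70 and 2.28 in high light in F. trinervia, while in F. robusta the 2 light levels overlapped, at 228, 233 and 239 against 204, 166 and 284.

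The control replicates of F. robusta, whose mean chose the genes, were far apart in part of the set. A gene that 1 high library carried over the cut-offs enters such a set, so the shares in control light are a description. In control light the highest replicate was more than 2 times the lowest in 52 of the 123 genes (42.3%), against 19.1% of the 6326 genes, and more than 5 times in 19 genes (15.4%), against 3.04%. Control 1 was the highest library in 17 of these 19, and control 3 was the lowest in 17, each counted separately. In high light, which did not enter that selection, high light 1 was the highest library in 13 of the 19 and high light 2 the lowest in 14. The gene ranked 15 was the extreme, with 1296, 156 and 3.69 TPM in control light and 1051, 107 and 415 in high light. In control light it had 2.89, 22.6 and 194 TPM in F. ramosissima, against a mean of 26.0 in F. trinervia. Its place in the set thus rests on control 1 of F. robusta and also on control 3 of F. ramosissima. Within groups, the median SD on the log2 scale was 0.426 and 0.525 in F. robusta for the set in control and high light, 0.610 and 0.421 in F. ramosissima, and 0.277 and 0.212 in F. trinervia. It was 0.268 and 0.414, 0.324 and 0.296, and 0.161 and 0.165 for the 6203 other genes of the level part. Of these 19 genes, 16 kept the order of means under high light, 11 kept both ratios at 0.5 or less, and 3 met the rule whichever control library was left out.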

How the data were processed

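The authors deposited 1 table of TPM values for the 18 libraries, sequenced per the labels as paired-end reads of 150 bp. The submitters' processing notes name RSEM and edgeR without versions. The sources used here do not give the reference, how genes were paired between species, or any filter, and levels between species rest on that pairing. In column names, H was taken for high and L for control light, which the labels do not spell out. Of 30041 rows, 1 that ran on into the next was left out, and 929 of the rest were at 0 in every library.

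Values were tested as log2(TPM + 1), on which fold changes of low genes are understated. The 18911 genes that averaged 1 TPM or more over 18 libraries, all 123 genes of the set among them, were fitted with limma (version 3.58.1, R version 4.3.3; abundance trend, two-sided). Species were compared in the 9 high light libraries (6 residual degrees of freedom) and light responses in a model of 6 groups (12 residual degrees of freedom). P-values were adjusted over all tested genes by the Benjamini-Hochberg method, with a threshold of 0.05, and the scripts were tested on simulated data. TPM keeps no read depth, so no counting interval was computed.

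The genes, lists and tests were chosen with earlier results of these data known. The gene lists rest on gene names and could not be used. Of the printed genes, 2 had the highest control mean in F. robusta and 2 the smallest p of a rise under high light in a species. Alternatives were another pseudocount, other filters, scalings and fits, a replicate block and leaving out each library.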

Additional observations from a re-analysis of the deposited data

Results flagged for a closer look

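The light response of some genes of the set differed between species in the interaction contrasts of the limma model of 18 libraries. The control libraries of these contrasts also chose the genes, so the counts are a description. The contrast of F. trinervia with F. robusta was called in 8 genes of the set (6.50%, against 3.10% of all tested genes), that of F. trinervia with F. ramosissima in 6 (4.88%, against 3.19%) and that of F. ramosissima with F. robusta in 2 (1.63%, against 1.78%). In all, 11 genes of the set were called in at least 1 of these contrasts.

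Gene20812 was among the genes called in a pair of the contrasts. Its light change in F. trinervia was more positive by 3.08 than in F. robusta and by 3.98 than in F. ramosissima on the log2(TPM + 1) scale. This gene was picked for the small p of its rise under high light in F. trinervia, so these differences are a description. The light change of Gene04349 was more positive in F. trinervia than in F. ramosissima by 1.05. Leaving out 1 library moved these counts and the share of all tested genes together. The first count lay between 2 (without F. robusta high light 3, 1.12% of all tested genes called) and 20 (without F. robusta high light 2, 13.1%). The second lay between 2 (without F. trinervia control 2, 0.619%) and 13 (without F. ramosissima control 2, 5.64%), and the third between 1 (without F. robusta control 2, 0.835%) and 13 (without F. robusta high light 2, 6.31%).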

How the results depend on the processing

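The counts called lower under high light stayed within 1.5 times under every alternative run on the 123 genes. Leaving out 1 high light library gave 97 to 109 genes at the first step, 62 to 79 at the second and 111 to 115 between F. robusta and F. trinervia. The shares of all tested genes called lower in those fits lay between 33.0% and 45.9%, 25.4% and 30.2%, and 22.3% and 33.5%. Restricted to the 43 genes that met the rule without any given control library, an alternative added after the data were examined, the counts were 40, 34 and 43. The shares of all tested genes were 38.9%, 28.7% and 26.6%. The rule itself selected 100 to 144 genes without 1 control library, and 91 to 116 of the 123 were among them. With the median of the 3 control libraries it selected 126 genes, 81 of them among the 123. In high light 59 of the 123 met the rule, and 54 to 64 without 1 high light library. With median-ratio scaling 41 met it, and with the median of the 3 high light libraries 52.

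The counts of light calls were less stable, and shares of all tested genes called are given in brackets. In F. robusta 2 genes were called (2.14%), 1 with a pseudocount of 0.1 (1.41%), without a filter (1.64%), with a filter at 5 TPM (2.31%) or with the replicate block (1.57%), 5 with median-ratio scaling (3.35%), 4 with quantile normalization (3.40%) and 0 in the species alone (0.0132%). In F. ramosissima 3 were called (2.34%), 10 with median-ratio scaling (4.57%) or quantile normalization (5.31%) and 0 in the species alone (0.0219%). In F. trinervia 10 were called (6.93%), 6 without a filter (4.76%) and 45 in the species alone (41.0%). Without 1 library the counts lay between 0 (without F. robusta control 2, 0.814%) and 11 (without F. robusta high light 2, 5.56%) in F. robusta, between 1 (without F. ramosissima high light 2, 1.41%) and 14 (without F. ramosissima control 2, 7.39%) in F. ramosissima, and between 3 (without F. trinervia control 1, 1.25%) and 12 (without F. robusta high light 2, 13.5%) in F. trinervia. Without F. robusta high light 2 and control 3, added after the data were examined, they were 9 (5.01%) in F. robusta and 8 (3.07%) in F. ramosissima.

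The difference in light response of F. trinervia minus F. robusta was called in 8 genes (3.10%), 4 with the replicate block (2.14%) and 17 without F. robusta high light 2 and control 3 (10.2%). F. ramosissima minus F. robusta was called in 2 (1.78%), 4 with median-ratio scaling (3.79%) or quantile normalization (3.93%), 1 with a pseudocount of 0.1 (1.32%) or without a filter (1.36%), and 11 without those libraries (5.41%). F. trinervia minus F. ramosissima was called in 6 (3.19%), 11 with quantile normalization (5.25%) or without those libraries (5.81%), and 2 with the replicate block (0.751%). The pseudocount, filters, quantile normalization and the setting without those libraries were added for these differences after the data were examined. Leaving out 1 library gave 2 to 20, 1 to 13 and 2 to 13. The median light change without 1 library lay between −0.37 and −0.24 in F. ramosissima, between −0.11 and 0.13 in F. robusta, and between −0.25 and −0.09 in F. trinervia. The cause of these moves was not tested.

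Without its 10 most abundant genes the set held 1.53% and 1.63% of listed TPM in F. robusta (control and high light), 0.405% and 0.374% in F. ramosissima, and 0.0987% and 0.199% in F. trinervia. Libraries with the same replicate number did not deviate together in the way a pairing would need, with correlations from −0.570 to 0.643 within a species and 6 of 18 libraries closest to their own number, so the block is given here only. It called 106, 72 and 115 genes lower in the 3 comparisons under high light, against 39.6%, 29.0% and 26.9% of all tested genes.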
